A study of Mus musculus with 24 samples.

Results

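The genes described here are 8 of the 32,285 genes of the deposited count matrix, matched by symbol: the helper cytokines *Csf2* and *Il2*, and the TNF family ligands *Tnf*, *Lta*, *Ltb*, *Fasl*, *Tnfsf8*, and *Tnfsf10*. All 8 symbols were found, each once. They were measured by single-cell RNA-Seq in subcutaneous Panc02 tumors, a mouse pancreatic cancer line, of male C57BL/6 mice aged 6 to 7 weeks, all of which carried the tumor. Mice received 1 of the 8 combinations of PancVAX, a neoantigen peptide vaccine, anti–PD-1, and anti–CTLA-4: isotype control, each antibody alone, both antibodies, and the same 4 arms with PancVAX. Vaccination took place on days 12 and 19 after implantation, anti–CTLA-4 was injected on days 15 and 22, dosing of anti–PD-1 began on day 12, and the labels date the harvest to day 38. A figure legend of the study gives an earlier day for T cells of Panc02 tumors and dates the second anti–CTLA-4 dose to day 19. Which days hold was not settled here. By the methods the vaccine also held the adjuvant AddaVax and a STING agonist, so the peptides and the adjuvants cannot be told apart. Tumors of a treatment were pooled, and each treatment had 1 library of whole dissociated tumor and 1 library of cells from a Percoll gradient. Both libraries of a treatment were summed and are called its pool, which gave 4 pools with PancVAX and 4 without. Each pool is a set of mice and not a mouse, and *P* values measure only the spread between pools. No treatment had a second pool, and the fits of the agents took their effects as additive. In those fits the spread between pools therefore also holds any interaction between the agents.

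The proteins of these genes carry signals from an activated lymphocyte to its neighbors. GM-CSF (*Csf2*) acts on myeloid cells and IL-2 (*Il2*) drives growth of T cells, whereas the TNF family ligands act on receptors that signal inflammation, lymphoid tissue organization, or apoptosis. The genes for GM-CSF, IL-2, TNF, and Fas ligand are switched on after T cell receptor engagement, partly by the calcium-dependent NFAT factors, and several of their mRNAs are short-lived. *Ltb*, *Tnf*, and *Lta* are neighbors on chromosome 17, at chr17:35194507-35205578, a span of 11,072 bases in GRCm38.p6. The other genes lie apart from them, *Csf2* at chr11:54247270-54249899, *Il2* at chr3:37120713-37125954, *Tnfsf10* at chr3:27317077-27339665, *Fasl* at chr1:161780691-161788495, and *Tnfsf8* at chr4:63831202-63861508.

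*Tnf*, *Fasl*, and *Csf2* each carried a called treatment difference in T cells, and the 250 bases before their annotated starts are shown for that reason. Of the windows of *Lta* and *Tnfsf8*, 227 and 224 bases lay inside the annotated gene, and neither is shown. The sequences are those of RefSeq (build GRCm38.p6), all on the minus strand, at chr17:35202008-35202257 for *Tnf*, chr1:161788496-161788745 for *Fasl*, and chr11:54249900-54250149 for *Csf2*. Capitals mark the core letters of NFAT sites, GGAAA or its reverse complement TTTCC.
Tnf: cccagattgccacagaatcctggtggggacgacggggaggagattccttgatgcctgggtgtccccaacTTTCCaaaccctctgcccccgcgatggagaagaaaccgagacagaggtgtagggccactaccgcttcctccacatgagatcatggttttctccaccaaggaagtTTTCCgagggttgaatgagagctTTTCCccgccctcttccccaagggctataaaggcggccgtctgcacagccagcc
Fasl: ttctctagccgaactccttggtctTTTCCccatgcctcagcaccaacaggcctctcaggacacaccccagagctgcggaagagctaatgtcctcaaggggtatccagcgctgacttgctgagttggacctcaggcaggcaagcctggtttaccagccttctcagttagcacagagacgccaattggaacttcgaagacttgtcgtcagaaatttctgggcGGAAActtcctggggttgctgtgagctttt
Csf2: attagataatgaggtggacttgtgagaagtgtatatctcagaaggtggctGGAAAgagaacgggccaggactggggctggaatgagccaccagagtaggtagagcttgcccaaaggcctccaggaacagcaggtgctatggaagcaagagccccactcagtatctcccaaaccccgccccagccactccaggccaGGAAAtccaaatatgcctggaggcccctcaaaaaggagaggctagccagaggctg
The *Tnf* window held 3 such cores and those of *Fasl* and *Csf2* held 2 each. The core is short, and 55.6% of 32,851 promoter windows of the same length held it. TATAAA occurred 29 bases before the start of *Tnf* and in 12.4% of all windows, and the AP-1 letters TGANTCA, found in 6.75% of windows, were in none of the 8 windows, those inside *Lta* and *Tnfsf8* included. The NF-κB consensus, found in 7.25% of windows, was seen once, before *Ltb*. These matches describe the letters of the windows only.

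Of 144,994 barcodes in 16 libraries, 57,357 passed the filter on cells. Libraries held 77,132,398 to 176,233,225 UMIs over all barcodes and 1793 to 7413 cells that passed, and 2057 of 55,243 barcode sequences that passed occurred in more than 1 library. Cells were sorted into gates by UMIs of marker genes: 9890 CD8 cells, 1295 CD4 cells, 128 γδ T cells, 447 NK cells, 2548 B cells, and 17,742 myeloid cells. A gate of 3017 tumor or stroma cells without *Ptprc*, which should lack most of these genes, served as the background. Its cells also had no UMI of the T, B, NK, and myeloid markers of the gates. Cells with stray immune RNA were thereby partly left out, so values of this gate can understate the background. *Cd3e* was seen in 95.3% of CD8 and 93.9% of CD4 cells, *Ncr1* in 67.6% of NK cells, and *Cd79a* in 99.6% of B cells. The macrophage gene *Lyz2* had a UMI in 12.1% to 13.5% of cells in the lymphoid gates and in 11.1% of tumor or stroma cells, and free RNA and doublets cannot be told apart as its source. *Tnf* had only 13 UMIs in the tumor or stroma gate, *Ltb* 24, *Csf2*, *Fasl*, and *Tnfsf8* 4 each, and *Il2* and *Lta* 1 each.

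Levels in the gates are counts per 1000000 UMIs of a gate (CPM), given as mean ± SD over 8 pools. Because a gate is a sum over cells, more cells with a transcript and more transcript per cell cannot be told apart in a CPM.

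*Csf2*, which encodes GM-CSF, was highest in the CD4 gate at 132 ± 131 CPM, with a lowest pool of 36.4, a median of 87.2, and a highest pool of 434. Every CD4 pool was above every NK pool, and the NK mean was 11.7 ± 9.64 CPM. The CD8 gate had 4.31 ± 3.19 CPM and the myeloid gate 0.20 ± 0.17, so *Csf2* was close to the background of 0.14 ± 0.31 CPM in myeloid cells. The CD4 gate, 1295 cells, held 62.4% of the *Csf2* UMIs of all cells that passed. *Il2*, the T cell growth factor, was the scarcest gene, with 62 UMIs in 17 CD4 cells and 8 UMIs in 8 CD8 cells. A further 3628 cells with at least 2 UMIs of *Cd3d*, *Cd3e*, and *Cd3g* fell in no gate. They held 28 *Il2* UMIs in 19 cells and 211 *Csf2* UMIs in 41 cells. A single CD4 cell of the anti–CTLA-4 pool held 39 of those 62 UMIs, and no level of *Il2* is compared between gates for that reason.

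*Tnf*, the inflammatory cytokine, had another order. Its level was 177 ± 43.7 CPM in the myeloid gate, with pools from 132 to 247, then 95.2 ± 24.5 in CD4 and 81.6 ± 46.8 in γδ T cells. All 8 myeloid pools were above all CD4 pools, whereas the CD4 and γδ ranges overlapped. This did not hold in every part of the myeloid gate. Its cells with *Csf1r* or *Adgre1* and no *Csf3r* had 111 ± 18.4 CPM, with pools from 89.9 to 139 that overlapped the CD4 pools. The CD8 gate had 46.2 ± 27.3, NK cells 28.9 ± 16.5, and B cells 21.8 ± 9.93 CPM, with overlapping ranges, against 0.65 ± 0.77 in tumor or stroma cells.

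The lymphotoxin genes both had their highest means in CD4 cells. *Lta*, whose product forms a soluble homotrimer or joins lymphotoxin β at the cell surface, had 60.4 ± 17.0 CPM in CD4, 26.5 ± 45.5 in γδ T, 22.2 ± 14.5 in B, 14.6 ± 9.32 in NK, and 10.46 ± 4.32 in CD8 cells, with overlapping ranges between neighbors. *Ltb*, the membrane anchor of that complex, had 927 ± 122 CPM in CD4, 748 ± 336 in γδ T, 460 ± 36.5 in CD8, 404 ± 100.3 in B, and 324 ± 69.5 in NK cells, again with overlapping neighbors. Myeloid cells had 36.2 ± 11.5 CPM of *Ltb*, below every lymphoid pool, and 0.15 ± 0.13 of *Lta*.

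*Fasl*, the ligand of the death receptor Fas, had its highest means in NK and CD8 cells, at 148 ± 37.9 and 125 ± 43.5 CPM with overlapping ranges. γδ T and CD4 cells had 62.5 ± 33.8 and 62.3 ± 30.4 CPM, and myeloid, B, and tumor or stroma cells had means of 0.47, 0.36, and 0.19 CPM. *Tnfsf8*, which encodes CD30 ligand, had 137 ± 31.4 CPM in CD4 cells, and its lowest CD4 pool of 96.1 was above the highest γδ pool of 52.9. *Tnfsf10*, which encodes the apoptosis ligand TRAIL, had similar means in NK and T cells, at 37.0 ± 23.0 in NK, 33.8 ± 5.74 in CD8, 31.6 ± 12.3 in CD4, and 30.6 ± 27.6 CPM in γδ T cells, which did not differ beyond their spread. B cells had 0.62 ± 0.89 CPM of *Tnfsf10*, and it was the only gene of the 8 with more than 24 UMIs in the tumor or stroma gate.

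**Figure D1:**
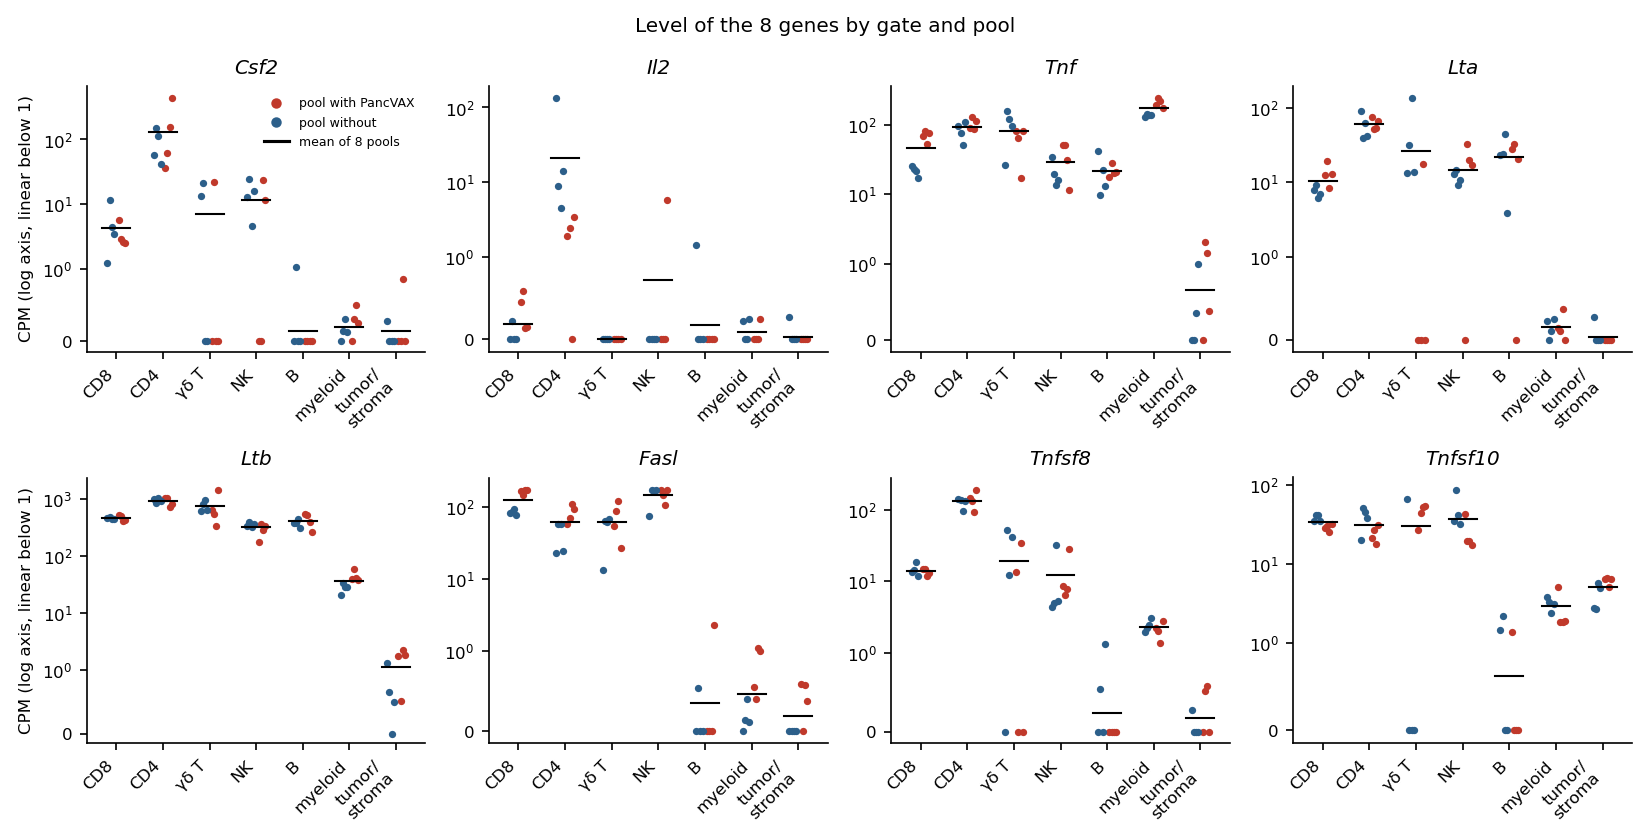
Level of each gene (CPM, log axis that is linear below 1) in the 6 gates and in tumor or stroma cells; each point is a pool, red with PancVAX and blue without, and each line is the mean of 8 pools. *Csf2* and *Tnfsf8* were highest in CD4 cells, *Fasl* in NK and CD8 cells, and *Tnf* in myeloid cells, where its pools ran from 132 to 247 CPM.

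In 1 fit of the 6 gates with the pool as a block, 6 of the 7 genes tested differed between CD4 and CD8 cells, where 15.9% of 7794 genes did. A gene was called when its adjusted *P* (edgeR with Benjamini-Hochberg over all genes tested) was under 0.05 and its log2 difference exceeded 0.5 in size. *Csf2* was higher in CD4 cells by a log2 of 4.87 (SE 0.25), *Tnfsf8* by 3.17 (SE 0.13), *Lta* by 2.42 (SE 0.21), *Tnf* by 0.98 (SE 0.19), and *Ltb* by 0.91 (SE 0.13). *Fasl* was lower, at −1.02 (SE 0.14), and *Tnfsf10* was not called (−0.22, SE 0.18). Every one of these calls held in all 6 alternatives, the separate preparations included. Of the NFAT and NF-κB factor genes, 7 of 9 tested were higher in CD4 cells, led by *Nfkb2*, *Nfkbia*, and *Nfkb1* (1.06, 1.52, and 1.00, with SE 0.10, 0.16, and 0.11). Other TNF ligands were higher in 3 of 6 tested, with *Tnfsf11* at 3.32 (SE 0.18), *Cd40lg* at 4.71 (SE 0.23), and *Tnfsf9* at 1.70 (SE 0.20).

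Against CD8 cells, 7 of 7 genes were called in myeloid cells, where 57.8% of all genes were, and 6 of 7 in B cells, where 47.1% were, so these shares stand on a high background. *Tnf* was the one member higher in myeloid cells, by 2.20 (SE 0.15), and *Lta* the one higher in B cells, by 1.29 (SE 0.26). The call of *Csf2* in B cells rested on 2 UMIs there, its fold is not given, and it was lost in 4 of 6 alternatives, which left 5 of 7: no block, stricter gates, and either preparation alone. In γδ T cells only *Fasl* was called (−1.13, SE 0.29, 7.11% of genes called), and the median of all genes in that fit lay at −0.21, so this value stands against a shift of the whole table. In NK cells only *Ltb* was called (−0.58, SE 0.15, 17.9% of genes called). Both calls were lost with stricter gates, at adjusted *P* = 0.188 for *Fasl* and 0.177 for *Ltb* (edgeR with Benjamini-Hochberg). The *Fasl* call held in 3 of 6 alternatives and was also lost in either preparation alone, and its log2 difference ran from −0.81 to −1.57. The *Ltb* call was also lost with RLE size factors (−0.50).

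Over the 48 sums of 6 gates and 8 pools, the genes closest in pattern were read from Pearson's r of log2 CPM, without a test, since points share pools and depth. *Fasl* was closest to *Ms4a4b* (r = 0.967), *Nkg7* (0.965), and *Ctsw* (0.960), and *Ltb* to *Dgka*, *Cd2*, and *Ptprcap* (0.956, 0.946, and 0.929). *Csf2* was closest to *Tnfsf11*, a TNF ligand gene that is not among the 8, at 0.819.

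The CD4 gate was split by *Foxp3*, the regulatory T cell factor. Of 231 cells with a *Foxp3* UMI over all pools, 0 had *Csf2* or *Il2*, which allows a share of up to 1.299% by counting error alone. Of 1064 cells without it 68 (6.39%) had *Csf2* and 17 (1.60%) had *Il2*. These are shares of cells pooled over the pools, given as a description with no test. *Tnf* was seen in 10.8% of Foxp3+ and 21.6% of other CD4 cells, *Lta* in 4.76% and 17.3%, *Fasl* in 3.46% and 24.6%, and *Tnfsf8* in 3.03% and 26.8%. *Ltb* went the other way at 88.7% and 78.9%, and *Tnfsf10* at 13.9% and 8.18%. Cells were not brought to equal depth here, and the part of depth in these shares was not tested.

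In sums by pool, 2 of 3 genes tested differed between the Foxp3+ and Foxp3-0 cells, where 19.5% of 2456 genes did. *Tnfsf8* was lower in Foxp3+ cells (−3.38, SE 0.35), at 19.9 ± 24.1 against 169 ± 33.6 CPM, and no pool overlapped. *Tnf* was also lower (−1.30, SE 0.26), at 50.6 ± 40.3 against 105 ± 26.6 CPM, with the isotype control pool of Foxp3+ cells at 141 CPM from 11 UMIs. *Ltb* was at 1185 ± 177 against 855 ± 116 CPM, a log2 of 0.35 (SE 0.10) under the size limit. The IL-2 receptor gene *Il2ra* was higher in the Foxp3+ cells by 2.42 (SE 0.14), and 2 of 4 receptor genes tested were higher.

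The *Csf2* cells of the CD4 gate were few and uneven. The 68 cells held 774 UMIs, up to 79 in 1 cell, and the top 10 cells held 60.7% of them. Their median depth was 5356 UMIs against 3333 in CD4 cells without *Csf2*, and the part of depth in the shares that follow was not tested. *Tnfsf8* was seen in 45 of the 68 cells (66.2%) against 20.1% of the others, *Tnf* in 33 (48.5%) against 18.1%, *Lta* in 31 (45.6%) against 13.4%, and *Fasl* in 26 (38.2%) against 19.9%. *Il2* was seen in 4 of them. *Ltb* differed little, at 80.9% and 80.6%. The 32 *Csf2* cells of the Percoll libraries with 1 TRB chain belonged to 31 clones, and no clone held more than 2 of them. Cells are not replicates, and these shares are a description of the pooled gate.

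In the CD8 gate, 62 to 121 cells of a pool had both *Pdcd1* and *Havcr2*, marker genes that are not among the 8 and encode inhibitory receptors. *Fasl* was at 116 ± 33.5 CPM (SD, n = 8 pools) in these cells, *Tnf* at 40.1 ± 21.2, *Tnfsf10* at 37.5 ± 12.0, and *Tnfsf8* at 3.43 ± 3.23.

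**Figure D2:**
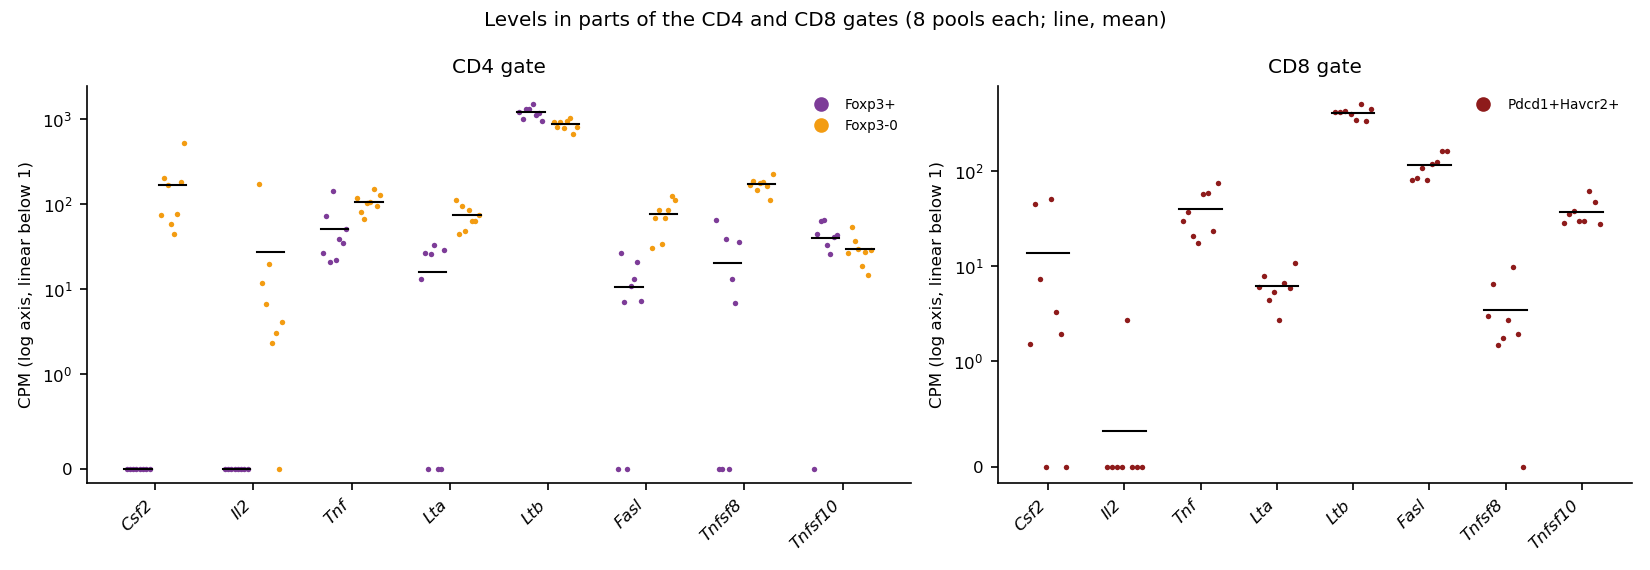
Level of each gene (CPM, log axis that is linear below 1) in Foxp3+ and Foxp3-0 cells of the CD4 gate, left, and in the CD8 cells with *Pdcd1* and *Havcr2*, right; each point is a pool and each line the mean of 8 pools. All 8 Foxp3+ pools were at 0 CPM for *Csf2* and *Il2*, and *Tnfsf8* had a mean of 3.43 CPM in the *Pdcd1* and *Havcr2* cells.

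PancVAX was compared over 4 pools with it and 4 without, with both antibodies as covariates. In CD8 cells the vaccine pools had more mRNA of TNF, Fas ligand, and, less firmly, lymphotoxin α, whereas the other ligands were level or slightly lower. Of 7 genes tested 3 were called, all higher, where 12.0% of 10,377 genes were called (763 higher and 478 lower, with a median change of all genes of 0.01).

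*Tnf* in CD8 cells was at 17.0, 23.1, 25.5, and 21.9 CPM in the isotype control, anti–PD-1, anti–CTLA-4, and 2-antibody pools. In the same 4 arms with PancVAX it was at 69.9, 53.9, 82.2, and 76.4 CPM. Every PancVAX pool was above every other pool. The log2 fold change was 1.59 (SE 0.12, adjusted *P* = 2.6e-06, edgeR with Benjamini-Hochberg), and the call held in all 17 alternatives, from 1.42 to 1.73. It was 1.71 in the Percoll libraries alone and 1.46 in the whole tumor libraries alone. CD8 cells of PancVAX pools were shallower, with a median of 3435 UMIs against 4685, and with each cell thinned to 1000 UMIs the change was 1.49.

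*Fasl* in CD8 cells was at 78.1, 85.1, 83.1, and 94.9 CPM in the 4 pools without PancVAX. With it, in the same order, *Fasl* was at 169, 171, 149, and 172 CPM. The pools did not overlap, and the change was 0.88 (SE 0.07, adjusted *P* = 7.34e-06, edgeR with Benjamini-Hochberg), called in all 17 alternatives from 0.79 to 0.93.

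*Lta* in CD8 cells was at 7.05, 9.21, 7.96, and 6.21 CPM without PancVAX and at 12.7, 8.36, 19.3, and 12.9 CPM with it. The PancVAX plus anti–PD-1 pool lay among the pools without the vaccine. The change was 0.69 (SE 0.21, adjusted *P* = 0.0318, edgeR with Benjamini-Hochberg) and rested on 444 UMIs. It ran from 0.52 to 0.99 over 17 alternatives, and the call held in 8 of them. The call was lost with DESeq2 (adjusted *P* = 0.0785), with thinned cells (adjusted *P* = 0.404, edgeR), with stricter gates (adjusted *P* = 0.151, edgeR), and in the Percoll libraries alone (adjusted *P* = 0.268, edgeR). It was also lost without the anti–CTLA-4 pool (log2 fold change 0.57), the 2-antibody pool (log2 fold change 0.59), the isotype control pool (log2 fold change 0.65), the PancVAX plus anti–CTLA-4 pool (log2 fold change 0.53), or the PancVAX plus both antibodies pool (log2 fold change 0.67), where the adjusted *P* of edgeR was at most 0.142.

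*Tnfsf10* in CD8 cells was at 35.0, 41.6, 35.3, and 41.7 CPM without PancVAX and at 29.0, 25.6, 30.4, and 32.0 CPM with it. The PancVAX pools were all below the others, and the log2 value of −0.47 (SE 0.10, adjusted *P* = 0.00423, edgeR with Benjamini-Hochberg) passed the *P* threshold but not the limit on size. It passed both with thinned cells (−0.51), in the Percoll libraries (−0.71), without the anti–CTLA-4 pool (−0.52), and without the PancVAX pool (−0.52). In the whole tumor libraries alone it was −0.29 and passed neither threshold (adjusted *P* = 0.134, edgeR with Benjamini-Hochberg). *Ltb* (−0.07, SE 0.07), *Tnfsf8* (−0.18, SE 0.15), and *Csf2* (−0.62, SE 0.43) were not called, and *Il2* had too few UMIs for the test.

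**Figure D3:**
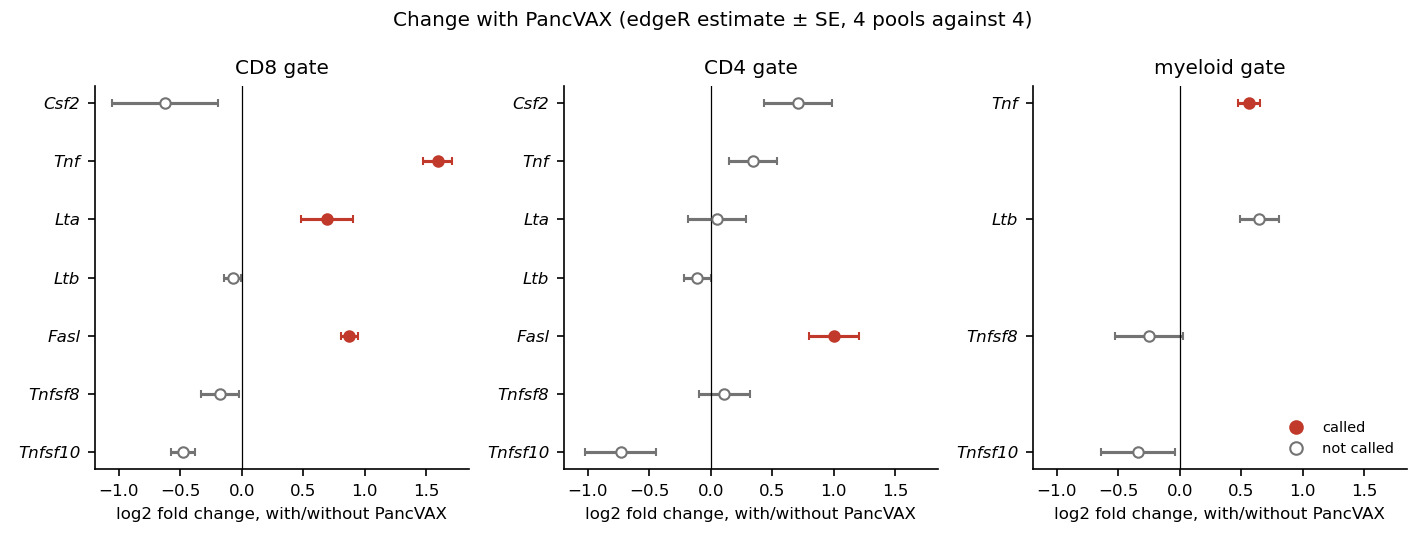
Log2 fold change with PancVAX (x axis) of each gene tested (y axis) in the CD8, CD4, and myeloid gates; points are edgeR estimates from 4 pools against 4, bars are their SE, and filled red points passed both thresholds. *Tnf* in CD8 cells, at 1.59, was the farthest from 0.

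The PancVAX comparison was also made in the *Pdcd1* and *Havcr2* cells of the CD8 gate, where 1 of 4 genes was called (2.02% of 5434 genes), *Fasl* at 81.6 to 109 CPM without PancVAX and 119 to 164 with it (0.56, SE 0.15, adjusted *P* = 0.0322, edgeR with Benjamini-Hochberg). This call held without the PancVAX plus anti–CTLA-4 pool and was lost without any 1 of the other 7 pools, at 0.47 to 0.61, and in each preparation alone. *Tnf* in these cells was at 0.84 (SE 0.31, adjusted *P* = 0.155, edgeR with Benjamini-Hochberg). The *Pdcd1* and *Havcr2* cells were 4.61% to 5.43% of CD8 cells with PancVAX and 10.4% to 14.1% without. This share was not taken at equal depth, and CD8 cells of PancVAX pools were shallower, with a median of 3435 UMIs against 4685. The part of depth in it was not tested, so no difference is read from it.

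Genes related to the 8 by role were followed in the CD8 gate as lists, beside 12.0% called of all genes. Of 6 genes for proteins that bind AU-rich or stem-loop elements of short-lived mRNAs, 3 were higher: *Zfp36l2* (0.86, SE 0.11), *Zfp36l1* (0.58, SE 0.07), and *Zc3h12a* (0.92, SE 0.13). Their median change was 0.53. Of 9 NFAT and NF-κB factor genes 3 were higher and none lower: *Nfkbia* (1.25, SE 0.07), *Nfatc3* (0.59, SE 0.07), and *Nfatc2* (0.63, SE 0.10), with a median of 0.34. Of 6 other TNF ligands tested 2 were higher, *Cd40lg* (2.80, SE 0.39) and *Tnfsf9* (1.42, SE 0.19), and 2 lower, *Tnfsf13b* (−1.09, SE 0.19) and *Tnfsf4* (−0.57, SE 0.19). The 10 relay genes of death receptors held 1 called gene, *Traf1* (0.52, SE 0.07), the 9 receptor genes 1, *Il2rb* (−0.53, SE 0.05), and the 2 other helper cytokines tested 0.

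The share of CD8 cells with at least 1 UMI was compared at equal depth, with each cell thinned to 1000 UMIs. *Fasl* was seen in 16.4% ± 1.05 (SD, n = 4 pools) with PancVAX and 8.85% ± 1.42 without, and *Tnf* in 6.32% ± 1.59 and 2.37% ± 0.37. *Tnfsf10* was seen in 2.71% ± 0.31 and 3.78% ± 0.63. All 3 pairs did not overlap, and neither did those of *Tnf* (15.6% ± 0.81 and 12.1% ± 0.39) and *Ltb* (7.30% ± 0.81 and 5.03% ± 0.64) in myeloid cells. Over 44 genes and gates, these 5 reached *P* = 0.0286, the smallest that an exact two-sided permutation test of 4 pools against 4 can give, and the adjusted value was 0.251, so none passed the correction. Shares were not compared over all genes, so how common such pairs are is not known. With PancVAX, edgeR gave an unadjusted *P* under 0.05 to 3734 of 10,377 genes in CD8 and 2191 of 11,331 in myeloid cells. In the tumor or stroma gate, whose median depth was 6782 UMIs, the thinned share was at most 0.334% for *Tnf* and *Ltb*, 0.333% for *Fasl*, and 1.12% for *Tnfsf10* in any pool. Without thinning, *Tnf* was seen in 17.5% ± 2.89 and 8.55% ± 1.08 of CD8 cells and *Fasl* in 42.3% ± 1.75 and 32.1% ± 3.08. *Ltb* was unthinned at 67.4% ± 3.55 of CD8 cells with PancVAX and 76.3% ± 1.74 without, while its CPM was level, at 462 and 458 on average, so no difference is read from that share. *Tnf* in myeloid cells overlapped without thinning, at 27.6% to 29.9% with PancVAX and 23.5% to 28.5% without.

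In CD4 cells 1 of 7 genes was called with PancVAX, where 2.16% of 5329 genes were. *Fasl* was at 24.6, 57.9, 23.3, and 58.7 CPM in the isotype control, anti–PD-1, anti–CTLA-4, and 2-antibody pools. With PancVAX it was at 57.5, 111, 71.2, and 93.7 CPM in the same order. The pool with PancVAX alone lay below both anti–PD-1 pools without it, so the groups overlapped, and each arm was higher with the vaccine than without. The change was 1.00 (SE 0.20, adjusted *P* = 0.0128, edgeR with Benjamini-Hochberg). It lost its call with stricter gates (0.53), in the Percoll libraries alone (0.74), without the PancVAX plus anti–PD-1 pool (0.95), and in the Foxp3-0 cells alone (0.84, adjusted *P* = 0.0519, edgeR with Benjamini-Hochberg), an alternative chosen after seeing the data. Foxp3+ cells, in which *Fasl* was rare, were 13.9% to 17.4% of the gate with PancVAX and 18.6% to 28.3% without.

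*Tnf* in CD4 cells was at 113, 78.0, 96.0, and 52.0 CPM without PancVAX and at 90.1, 87.1, 130, and 115 CPM with it. The groups overlapped, and the change was 0.35 (SE 0.20, adjusted *P* = 0.444, edgeR with Benjamini-Hochberg). *Lta* (0.05, SE 0.24), *Ltb* (−0.11, SE 0.11), *Tnfsf8* (0.11, SE 0.21), *Tnfsf10* (−0.73, SE 0.29), and *Csf2* (0.71, SE 0.28) were not called. Of the related lists only *Zc3h12a* passed, at 0.79 (SE 0.16), 1 of 6 genes for mRNA decay, beside 2.16% of all genes.

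The difference between gates was tested directly. Of 8 genes, 2 had a PancVAX change that differed between CD4 and CD8 cells, where 1.56% of 9810 genes did. For *Tnf* the change in CD4 cells was smaller, with a log2 difference of −1.20 (SE 0.22, adjusted *P* = 0.00253, edgeR with Benjamini-Hochberg), with −0.96 to −1.41 when each pool was left out, −1.05 in the Percoll libraries, and −1.73 in the whole tumor libraries. For *Fasl* the difference was 0.16 (SE 0.21) and did not pass. The other called gene was *Il2* (−6.15, SE 1.55, adjusted *P* = 0.0351, edgeR with Benjamini-Hochberg), which was at −4.48 (adjusted *P* = 0.428) without the anti–CTLA-4 pool, where 1 cell held 39 UMIs. It was also lost without any 1 of 6 other pools, and over all 8 such fits the difference ran from −4.48 to −8.51. In CD4 cells *Il2* was at 0 to 3.43 CPM with PancVAX, from 6 UMIs, and at 4.52 to 134 CPM without, from 56 UMIs. The groups did not overlap, and in CD8 cells *Il2* had 7 UMIs with PancVAX and 1 without. The share of CD4 cells with an *Il2* UMI was 0.73% with PancVAX and 2.79% without, apart over the pools, and overlapped at equal depth. *Csf2* was at 1.45 (adjusted *P* = 0.0832, edgeR with Benjamini-Hochberg) and was not called. It was called with stricter gates (2.26), in the Percoll libraries alone (3.17), and in 4 of the 8 fits that left out 1 pool (0.95 to 1.92 over the 8), and was at −0.082 in the whole tumor libraries.

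Anti–PD-1 went with 1 gene of the 8, *Csf2* in CD4 cells. There 1 of 7 genes was called, where 0.0563% of 5329 genes, 3 in all, were. *Csf2* was at 149, 113, 158, and 434 CPM in the pools with anti–PD-1 alone, both antibodies, PancVAX plus anti–PD-1, and PancVAX plus both. In the matching pools without anti–PD-1 it was at 42.2, 58.2, 36.4, and 61.4 CPM. The lowest anti–PD-1 pool was above the highest of the others, and the change was 2.13 (SE 0.28, adjusted *P* = 0.00256, edgeR with Benjamini-Hochberg). With PancVAX plus both antibodies left out it was 1.53 (adjusted *P* = 0.0156, edgeR with Benjamini-Hochberg).

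This *Csf2* difference rested on few cells. The pools held 12 to 380 *Csf2* UMIs, and the share of CD4 cells with at least 1 UMI was 1.25%, 5.15%, 4.90%, and 3.20% in the pools without anti–PD-1 and 6.09%, 6.19%, 2.70%, and 11.2% in the matching pools with it, which overlapped. Between preparations the same pool could differ widely: anti–PD-1 alone had 34.9 CPM in the Percoll and 304 CPM in the whole tumor library, and both antibodies had 171 and 36.6 CPM. The change was 2.65 in the Percoll libraries and called, and 1.71 in the whole tumor libraries and not called (adjusted *P* = 0.475, edgeR with Benjamini-Hochberg). It was also not called with thinned cells (1.66), stricter gates (1.58), 16 libraries as units (2.18), or without the PancVAX plus anti–CTLA-4 pool (1.90). In the Foxp3-0 cells alone it was 2.10 and called.

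*Fasl* in CD4 cells was higher in each of the 4 arms with anti–PD-1 than in the matching arm without, by the values given above, but its change of 0.80 (SE 0.19, adjusted *P* = 0.436, edgeR with Benjamini-Hochberg) did not pass. Anti–CTLA-4 gave 0 calls among the 7 genes in CD4 cells (0.0375% of genes, 274 of 5329 at an unadjusted *P* under 0.05 by edgeR and 1 called by DESeq2). In CD8 cells neither antibody gave a call in edgeR among 10,377 genes (0%), with 454 and 400 at an unadjusted *P* under 0.05 for anti–PD-1 and anti–CTLA-4 and 3 and 1 called by DESeq2. In myeloid cells neither gave a call among 11,331 genes (0%), with 828 and 628 unadjusted and 1 and 0 called by DESeq2.

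**Figure D4:**
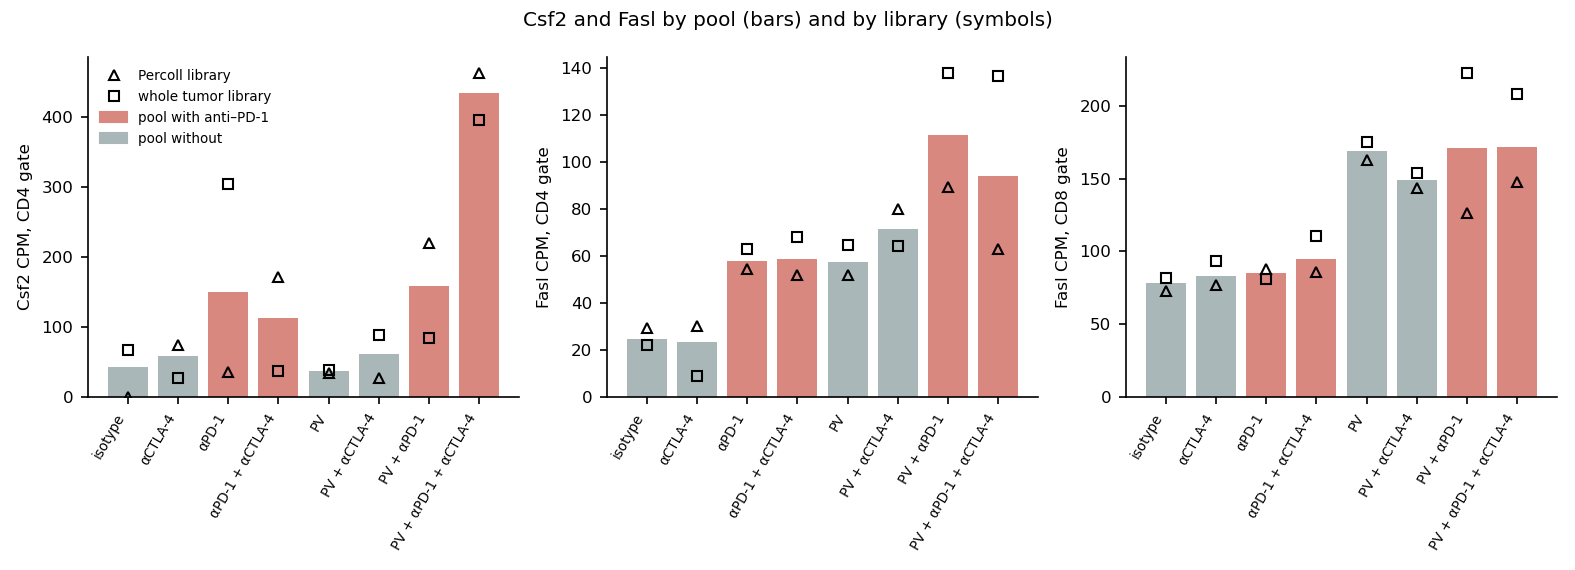
CPM (y axis) of *Csf2* in CD4 cells and of *Fasl* in CD4 and CD8 cells for the 8 pools (x axis; PV, PancVAX; α, anti); bars are pools, red with anti–PD-1, triangles are Percoll and squares whole tumor libraries. *Csf2* reached 434 CPM in the pool with all 3 agents, its 2 libraries differed widely in some pools, and *Fasl* in CD8 cells stepped up in all 4 PancVAX pools.

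In myeloid cells 1 of 4 genes was called with PancVAX, where 1.22% of 11,331 genes were. *Tnf* was at 142, 146, 132, and 141 CPM in the isotype control, anti–PD-1, anti–CTLA-4, and 2-antibody pools. With PancVAX it was at 199, 228, 247, and 178 CPM. The groups did not overlap, and the change was 0.56 (SE 0.09, adjusted *P* = 0.0139, edgeR with Benjamini-Hochberg), close to the limit of 0.5. It lost its call in the Percoll libraries alone (0.44), the whole tumor libraries alone (0.87, adjusted *P* = 0.0544, edgeR with Benjamini-Hochberg), and without upper limits on cells (0.43), as well as without the anti–CTLA-4 (0.53), isotype control (0.55), PancVAX plus anti–CTLA-4 (0.45), or PancVAX plus anti–PD-1 pool (0.51).

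The myeloid gate held macrophage-marker cells (*Csf1r* or *Adgre1* and no *Csf3r*) and neutrophil-marker cells (*Csf3r* and neither of the others). The remaining cells of the gate had both kinds of marker or neither. The pools of both *Tnf* and *Ltb* were apart between macrophage-marker and neutrophil-marker cells. *Tnf* was at 515 ± 105 CPM in neutrophil-marker and 111 ± 18.4 in macrophage-marker cells, and *Ltb* at 203 ± 27.1 and 5.84 ± 1.93. Neutrophil-marker cells were 23.9% to 26.2% of the gate with PancVAX and 14.0% to 22.6% without. This share was not taken at equal depth, and myeloid cells of PancVAX pools were shallower, with a median of 2391 UMIs against 3232. The part of depth in this share was not tested, so no difference is read from it. Within them *Tnf* was at 444, 391.7, 461, and 396 CPM without PancVAX and 622, 611, 648, and 547 CPM with it, without overlap, a change of 0.50 (adjusted *P* = 0.0287, edgeR with Benjamini-Hochberg). Within macrophage-marker cells it was at 97.0, 89.9, 104, and 100.0 CPM without and 114, 139, 139, and 107 CPM with it, also without overlap, a change of 0.32 (adjusted *P* = 0.187, edgeR with Benjamini-Hochberg). In the remaining cells of the gate *Tnf* was at 148 to 183 CPM without PancVAX and 205 to 280 CPM with it, and no fit was run. These splits were added after seeing the data.

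*Ltb* in myeloid cells was at 28.3, 33.7, 21.3, and 28.3 CPM without PancVAX and 40.4, 40.9, 59.1, and 37.6 CPM with it. The groups did not overlap, and the change of 0.65 (SE 0.16, adjusted *P* = 0.0586, edgeR with Benjamini-Hochberg) did not pass. Within neutrophil-marker cells it was 0.16 and within macrophage-marker cells 0.58, neither of which was called. *Tnfsf8* (−0.25, SE 0.27) and *Tnfsf10* (−0.34, SE 0.30) were not called. Of the related lists, beside 1.22% called of all genes, 2 of 9 NFAT and NF-κB factor genes were higher, *Nfkbia* (0.68, SE 0.11) and *Rel* (0.54, SE 0.09), with *Traf1* (0.65, SE 0.09, 1 of 10 relay genes) and *Il10* (0.83, SE 0.15, 1 of 2 helper cytokines tested).

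In the smaller gates edgeR called 0 genes with PancVAX (0% of 899 in γδ T, 2736 in NK, and 6065 in B cells), with 80, 294, and 341 at an unadjusted *P* under 0.05 and 1, 0, and 7 called by DESeq2. The genes tested were *Ltb* in γδ T cells, *Ltb* (−0.33, SE 0.19) and *Fasl* (−0.04, SE 0.26) in NK cells, and *Tnf* (−0.16, SE 0.31), *Lta* (0.26, SE 0.48), and *Ltb* (0.13, SE 0.21) in B cells. NK *Fasl* ran from 74.2 to 175 CPM without PancVAX and from 107 to 174 with it. Pools of these gates had as few as 10 γδ T, 33 NK, and 42 B cells.

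*Tnf* was the one gene of the 8 called between the preparations, which were also the sequencing batches, so gradient and batch cannot be told apart. In CD8 cells 1 of 6 genes was called between Percoll and whole tumor libraries, where 5.71% of 9113 genes were, and *Tnf* was higher in Percoll by 1.58 (SE 0.10). Its Percoll libraries ran from 26.3 to 33.2 CPM without PancVAX and 81.0 to 136 with it, and its whole tumor libraries from 5.95 to 14.2 and 22.6 to 43.4, so that the vaccine groups were apart within each preparation. In CD4 cells 1 of 6 was called (3.61% of 3295 genes), *Tnf* at 1.34 (SE 0.21), higher in Percoll in 7 of 8 treatments. In myeloid cells 1 of 3 was called (9.30% of 10,157 genes), *Tnf* at 1.34 (SE 0.09), higher in 8 of 8.

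*Fasl*, *Tnfsf8*, and *Tnfsf10* in CD8 cells had Percoll differences under the size limit (−0.33, −0.47, and −0.34, with adjusted *P* = 0.002, 0.0122, and 0.0129, edgeR with Benjamini-Hochberg). Of the genes for mRNA decay 1 of 6 was called in CD8, 1 of 5 in CD4, and 0 of 6 in myeloid cells. It was *Zfp36*, whose product destabilizes AU-rich mRNAs, higher in Percoll in CD8 (1.51, SE 0.06) and CD4 cells (1.06, SE 0.12). Of 9 NFAT and NF-κB factor genes 2 were called in CD8 cells, 1 in CD4 cells, and 3 in myeloid cells. *Nfkbia* was higher in all 3 gates (0.88, 0.62, and 1.06, with SE 0.07, 0.10, and 0.07), *Relb* was higher in CD8 cells (0.52, SE 0.09), and in myeloid cells *Rel* was higher (0.57, SE 0.05) and *Nfatc2* lower (−0.56, SE 0.11). The other 4 lists held 1 call in CD8 cells, *Ifng* (1.12, SE 0.08), and 1 in CD4 cells, *Cd40lg* (−0.53, SE 0.15). In myeloid cells they held 1 each, all higher: the receptor gene *Fas* (0.70), the ligand gene *Tnfsf14* (1.74), *Il10* (1.03), and the relay gene *Traf1* (1.04). Percoll cells were 43.1% to 55.9% of CD8 cells in the PancVAX pools and 37.7% to 64.3% in the others, with overlapping ranges.

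**Figure D5:**
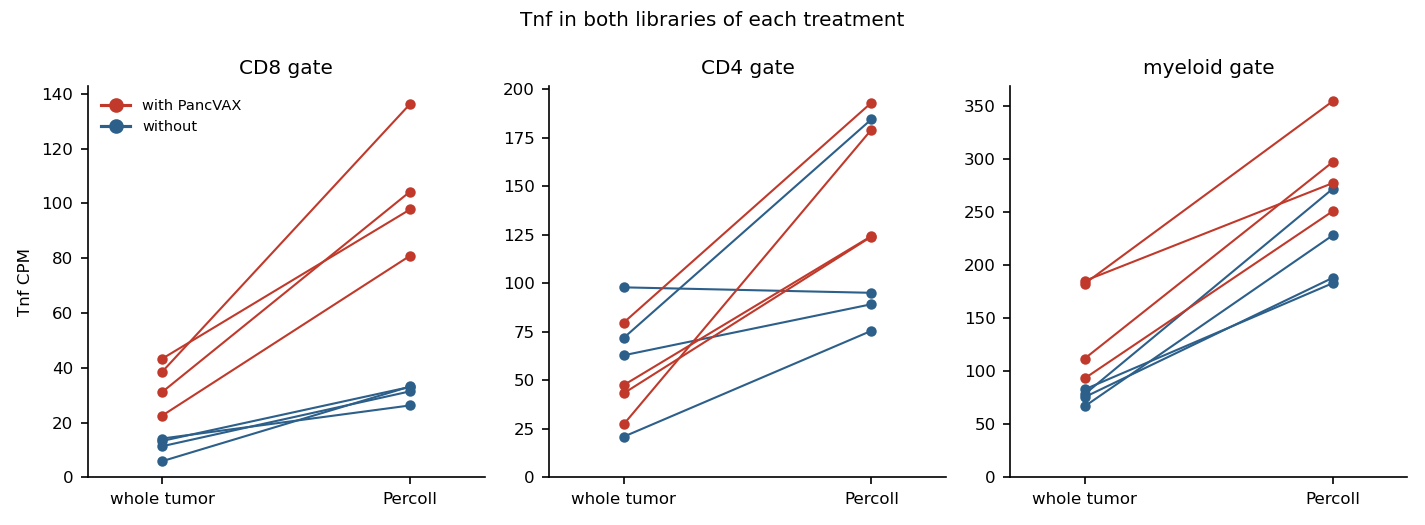
*Tnf* level (CPM, y axis) in the whole tumor and Percoll library of each treatment (x axis), joined by a line, in CD8, CD4, and myeloid cells; red lines are PancVAX treatments and blue lines the others. In CD8 cells the red and blue lines stayed apart in both preparations, at 81.0 to 136 against 26.3 to 33.2 CPM in Percoll, and in CD4 cells they crossed.

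The Percoll libraries also carried T cell receptor sequences, which gave 4301 CD8 cells with 1 TRB chain, 1344 in clones of 1 cell and 2957 in clones of at least 2. Of 6 genes tested 1 was called between them, where 7.14% of 7168 genes were. *Tnfsf8* was lower in the larger clones (−0.97, SE 0.24, adjusted *P* = 0.0105, edgeR with Benjamini-Hochberg). *Fasl* (0.15, SE 0.09), *Tnfsf10* (0.06, SE 0.16), *Ltb* (−0.12, SE 0.05), *Tnf* (−0.31, SE 0.10), and *Lta* (−0.72, SE 0.30) were not called. With clones of 5 or more cells against clones of 1, *Tnfsf8* had too few UMIs for the test, and *Tnf* was at −0.43, with an adjusted *P* of 0.00353 (edgeR with Benjamini-Hochberg) and a size under the limit.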

How the data were processed

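Counts of UMIs per gene and barcode were used as the authors deposited them, made with Cell Ranger 4.0.0 on mm10 per the labels, whose notes also name Seurat. The authors' T cell receptor contig table was used for clone size (read and UMI counts of contigs were not tested). Barcodes were assigned to libraries by the number at their end, matched to the numbers of the sample descriptions, which the files do not state outright. All 24 samples were used: 16 gene expression and 8 T cell receptor libraries.

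Cells with 1000 to 10000 UMIs, 200 to 3000 genes, under 10% mitochondrial UMIs, and no hemoglobin UMI were kept, which was 39.6% of barcodes. No doublet caller was run, and doublets between classes were limited only by the exclusion markers of the gates. T gates needed at least 2 UMIs of *Cd3d*, *Cd3e*, and *Cd3g* and at least 1 of their lineage marker. They allowed at most 1 UMI of B and of myeloid markers and 2 of tumor or stroma markers, and NK markers were not limited. CD8 and CD4 cells had no UMI of the other's marker or of *Trdc*. The γδ T cells also needed 2 UMIs of γδ marker genes and none of αβ receptor genes, *Cd8b1*, or *Cd4*. NK, B, and myeloid gates needed 2 UMIs of their markers. Barcode sequences were shared by every pair of libraries, 5 to 45 per pair.

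The study tested cells with MAST. Here UMIs were summed by gate and pool, pools under 10 cells were left out, and the quasi-likelihood test of edgeR 4.0.16 (TMM, filterByExpr, R 4.3.3) was used, two-sided, with Benjamini-Hochberg adjustment over all genes tested. DESeq2 1.42.0 and the alternatives of the closing section were also run. Scripts were tested on simulated data. The 8 genes and the lists of related genes were chosen with earlier results of these data known. Named were all 8 genes in every comparison, up to 3 called genes of smallest *P* per list, and the 3 genes closest by Pearson's r, of which some are printed. CPM was computed from the sums. RefSeq sequences were matched by symbol for all 8 genes. Intervals and limits from a count of 0 cover counting error only. Preparation is also the sequencing batch. Other planned parts of the CD8 gate are not reported here.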

Additional observations from a re-analysis of the deposited data

Results flagged for a closer look

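In 6 of 40 groups of 4 pools, 1 pool stood far from the other 3 by Dixon's criterion at 95%. That criterion flags about 1 in 20 groups of normally distributed replicates. Here the 4 pools of a group were different antibody arms and the groups shared pools, so that rate does not apply to them. *Il2* in CD4 cells was at 134 CPM in the anti–CTLA-4 pool against 4.52 to 14.1 CPM in the other pools without PancVAX. *Tnfsf8* in CD4 cells was at 97.1 CPM in the 2-antibody pool, the lowest of those pools, which reached 145 CPM. *Csf2* in CD8 cells was at 5.80 CPM in the PancVAX pool, from 26 UMIs, and at most 2.92 CPM in the other PancVAX pools. *Fasl* in CD8 cells was at 149 CPM in the PancVAX plus anti–CTLA-4 pool, the lowest PancVAX pool and still above all pools without the vaccine. *Ltb* in myeloid cells was at 59.1 CPM in the PancVAX plus anti–CTLA-4 pool, against at most 40.9 CPM in the other PancVAX pools. *Tnfsf10* in myeloid cells was at 5.17 CPM in the PancVAX pool, from 37 UMIs, against at most 1.87 CPM.

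The PancVAX change differed between CD4 and CD8 cells for *Tnf*, by −1.20, and for *Il2*, by −6.15. When each pool was left out in turn, the *Tnf* call held in 8 of 8 fits and the *Il2* call in 1 of 8. *Tnfsf10* had 99 UMIs in the tumor or stroma gate, which no comparison used, at 2.65 to 6.71 CPM over the 8 pools.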

How the results depend on the processing

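Every call of the 8 genes kept its direction in each alternative in which the gene was tested. The genes of the related lists were read from the main fits only. The alternatives were tallied for values of the 8 genes that the report prints or that passed under some setting, and values of neither kind changed sign in further cases. Of these 704 alternative values, 579 kept direction and side of the thresholds, 30 newly passed, 52 no longer passed, and 34 changed sign, none of which had been called. The other 9 were shares of cells that kept the direction of their difference, while some of them changed between overlap and no overlap. The *Tnf* and *Fasl* changes with PancVAX in CD8 cells and the CD4 against CD8 differences kept every call. In the γδ T gate 1 of the 8 genes and in the NK gate 2 had enough UMIs for the PancVAX test. The cause of the changes below was not tested. The number of all genes called also moved between settings and is not given beside the counts below. With anti–PD-1 in CD8 cells, 0 of 10,377 genes became 39 of 18,357 without a filter on low counts. No gain or loss of the 8 genes beyond that of all genes is read from these counts.

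The number of the 8 genes called with PancVAX in CD4 cells, 1, became 3 without a filter on low counts and 0 with stricter gates, Percoll libraries only, Foxp3-0 cells only, or thinned cells, where *Fasl* was not tested, and 0 to 1 without single pools. In myeloid cells, 1 became 2 with DESeq2, no filter, thinned cells, or 16 libraries as units, and 0 without upper limits, in either preparation alone, or in macrophage-marker cells only, and 0 to 2 without single pools. In the *Pdcd1* and *Havcr2* cells, 1 became 0 in either preparation and 0 to 1 without single pools. With anti–PD-1 in CD4 cells, 1 became 3 without a filter and 0 with stricter gates, thinned cells, whole tumor libraries only, or 16 libraries, and 0 to 1 without single pools. With anti–CTLA-4 in CD4 cells, 0 became 2 without a filter and 1 without upper limits. The difference of the PancVAX change between gates, 2, became 1 in whole tumor libraries, where *Il2* was not tested, and 1 to 2 without single pools, where *Tnf* was called in 8 of 8, *Csf2* in 4, and *Il2* in 1. All alternatives for the antibodies and for that difference, the splits by *Foxp3* and by myeloid marker, and the preparations within the *Pdcd1* and *Havcr2* cells were chosen after seeing the data.

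Against CD8 cells, 1 gene in γδ T cells became 4 with DESeq2, 2 with RLE size factors or stricter gates, and 0 in whole tumor libraries, where only 1 γδ T library, of 11 cells, was left and a call was hardly possible. The 1 in NK cells became 0 with RLE or stricter gates and 2 in whole tumor libraries. The Foxp3 split, 2, became 1 in whole tumor libraries, where *Tnf* was not tested. Percoll against whole tumor in CD4 cells, 1, became 0 with DESeq2, which gave no adjusted *P* for *Tnf*. Clones, 1, became 0 for 5 or more cells, and shares without overlap, 5, became 8 unthinned, with *Tnf* in myeloid cells lost. The shares were not compared over all genes in either form.

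Sign changes with PancVAX in CD8 cells were *Csf2*, at −0.997 to 0.047 without single pools, *Ltb* at 0.0052 without upper limits, and *Tnfsf8* at 0.024 without upper limits and 0.020 in whole tumor libraries. In CD4 cells *Tnf* was at −0.033 with stricter gates and −0.28 in whole tumor libraries. *Lta* there was at −0.12 without upper limits, −0.079 with stricter gates, −0.063 in whole tumor libraries, −0.084 in Foxp3-0 cells, and −0.091 to 0.32 without single pools, and *Tnfsf8* at −0.035 in Foxp3-0 cells and −0.19 to 0.32 without single pools. In the *Pdcd1* and *Havcr2* cells *Tnfsf10* was at −0.11 to 0.44 without single pools. In whole tumor libraries *Lta* was at −7.32 in γδ T against CD8 cells, a fitted value from that 1 library with 0 UMIs that is neither a fold nor a bound, and the difference between gates for *Csf2* was −0.082. That for *Fasl* was −0.25 with stricter gates. With PancVAX in NK cells *Fasl* was at 0.13 with stricter gates, 0.050 in whole tumor libraries, and −0.31 to 0.30 without single pools. In B cells *Tnf* was at 0.042 with stricter gates and −0.38 to 0.35 without single pools, *Lta* at −0.38 to 0.72, and *Ltb* at −0.10 to 0.39.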

Other observations

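*Tnfsf10* in tumor or stroma cells was at 5.00, 2.65, 2.74, and 5.80 CPM in the isotype control, anti–PD-1, anti–CTLA-4, and 2-antibody pools and at 6.47, 5.17, 6.71, and 6.42 CPM in the same arms with PancVAX. The ranges overlapped, and no test was run. Over the 8 CD8 pools the genes closest to *Tnf* were *Ube2d3*, *Btg1*, and *Capn2* (Pearson's r = 0.996, 0.993, and 0.989), and those closest to *Fasl* were *Gpr171*, *Psap*, and *Msn* (0.989, 0.987, and 0.987). These values were picked as the highest of all genes and follow the split by PancVAX, and no *P* is given for them.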
